A study of Mus musculus with 47 samples.

Results

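Ccl8 encodes a CC chemokine, and its values were read from 1 probe set, 92459_at, the only probe set that the array annotation gives to this gene among 34256 in the 3 tables used for the comparisons. The probe set is present in 2 of the 6 array tables, the first-version A and the version 2 A table of the Affymetrix murine U74 set. Ccl8 was chosen by its ragweed and PBS intensities on these same arrays, which were already known to differ, so its levels and differences are a description and carry no test. The 11 other CC chemokine genes with a tested probe set were compared with it.

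Total RNA from mouse lung was measured in 4 groups of 2 samples, coded 1a and 1b. In the ragweed 72 h and ragweed 24 h groups, mice received ragweed pollen protein with alum, an adjuvant, on days 0 and 3, were challenged through the trachea with the same protein on days 10 and 17, and were killed 72 h or 24 h later. In the PBS 72 h and PBS 24 h groups, phosphate-buffered saline took the place of ragweed on the same days. The labels name alum for ragweed mice alone, so alum and ragweed cannot be told apart, and give no strain, sex or age. Because separate animals are not stated for samples 1a and 1b, errors and p-values measure sample-to-sample spread that could be technical alone. The arrays held the markers of the labelled tissue: Sftpc, the surfactant protein of type II alveolar cells, had intensities from 50946 to 71315, and the summed level of 7 lung epithelium genes was 161398 to 172442 in ragweed 72 h, 176379 to 179577 in ragweed 24 h, 177144 to 181413 in PBS 72 h and 142546 to 145201 in PBS 24 h.

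Chemokines are small secreted proteins that direct the movement of white blood cells through receptors on the cell surface. Mouse Ccl8 is made by macrophages and other cells and is a ligand of Ccr8, a receptor of T helper 2 and regulatory T cells, and it is known for recruiting such cells in allergic inflammation. Ccl8 lies in a row of related genes on mouse chromosome 11, in the order Ccl2, Ccl7, Ccl11, Ccl12, Ccl8 and Ccl1. Ccl2, Ccl7 and Ccl12 attract monocytes through Ccr2, Ccl11 is eotaxin, an eosinophil attractant that acts on Ccr3, and Ccl1 is another ligand of Ccr8.

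The promoters of Ccl8 and of its neighbour Ccl12 are shown. Of the neighbours looked up, Ccl2, Ccl7, Ccl11 and Ccl12, Ccl12 alone had a promoter entry, and Ccl1 was not looked up. Each line gives the 250 bases before the start of transcription on the plus strand, from RefSeq on GRCm38.p6, at chr11:82114935-82115184 for Ccl8 and chr11:82101595-82101844 for Ccl12. Capitals mark the TATA box, TATAAA.
Ccl8: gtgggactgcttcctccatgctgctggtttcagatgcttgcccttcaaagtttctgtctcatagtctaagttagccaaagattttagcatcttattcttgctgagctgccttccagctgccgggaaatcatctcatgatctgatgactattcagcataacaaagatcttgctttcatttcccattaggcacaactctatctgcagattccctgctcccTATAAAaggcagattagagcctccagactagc
Ccl12: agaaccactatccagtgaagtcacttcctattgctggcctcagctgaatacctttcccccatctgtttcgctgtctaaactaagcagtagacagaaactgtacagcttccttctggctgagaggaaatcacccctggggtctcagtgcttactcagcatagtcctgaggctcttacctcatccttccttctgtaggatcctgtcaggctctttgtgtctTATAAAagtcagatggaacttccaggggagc

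The TATA box lay 32 to 27 bases before the start in Ccl8 and 31 to 26 bases before it in Ccl12. Of 32851 mouse promoters cut to the same length, 12.4% hold TATAAA on either strand. Another 6 patterns were searched on both strands and were in neither window. They were TTC and GAA set 4 bases apart, the STAT6 pattern, held by 5.85% of the promoters, TTC and GAA set 3 bases apart, the pattern of other STAT proteins (7.02%), GGGA and TTTCC set 1 base apart, the NF-kappaB pattern (0.356%), TGANTCA of AP-1 (6.75%), TTGCNNAA of C/EBP (9.56%), and GAAA and GAAA set 2 bases apart, the core of the interferon-stimulated response element (2.98%). These are matches of letters in 1 window and say nothing of binding. Ccl2, Ccl7 and Ccl11 had no entry in the promoter table.

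Ccl8 was high in every ragweed sample, and more so at 72 h than at 24 h. After normalization, its intensity on the first-version A array was 15972 (1a) and 16832 (1b) in ragweed 72 h, 3897 and 5981 in ragweed 24 h, 737 and 423 in PBS 72 h, and 99.8 and 279 in PBS 24 h. The 4 groups did not overlap and ranked ragweed 72 h, ragweed 24 h, PBS 72 h and PBS 24 h. Both PBS 24 h values lay under the floor of 291.6, an intensity below which values were not ordered (the 40th percentile of the table), so the level in PBS 24 h is known only as a bound.

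Group means were 16402 ± 608 in ragweed 72 h, 4939 ± 1473 in ragweed 24 h, 580 ± 222 in PBS 72 h and 189 ± 127 in PBS 24 h (SD, n = 2 each). The replicates differed by 1.05 times in ragweed 72 h, 1.53 times in ragweed 24 h and 1.74 times in PBS 72 h. Ragweed 72 h and ragweed 24 h, and ragweed 24 h and PBS 72 h, lay further apart than the replicates within them. Both PBS 72 h samples were above the floor and both PBS 24 h samples under it, so the distance between the PBS groups is not known. In lung tissue, fewer cells of a type and less RNA per cell cannot be told apart, and this holds for every level given here.

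**Figure D1:**
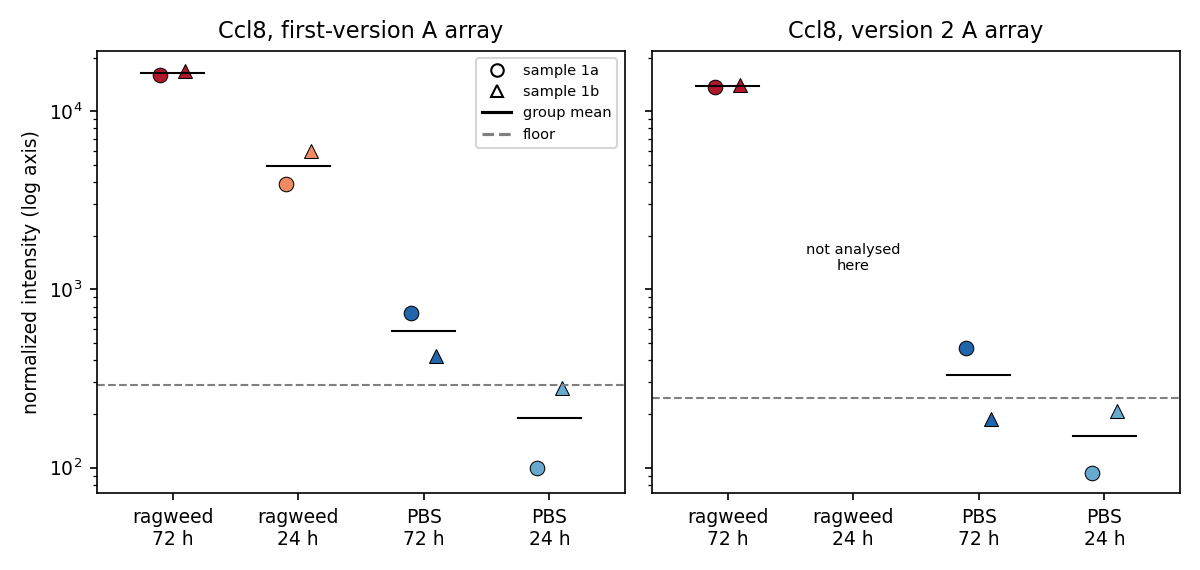
Normalized intensity of Ccl8 (92459_at) in each sample on a log axis, on the first-version A array (left panel) and the version 2 A array (right panel). Points are samples 1a and 1b, black bars are group means and the dashed line is the floor. Both ragweed groups lie above both PBS groups on the left, and the ragweed 72 h samples lie at 13730 and 14097 on the right, where ragweed 24 h was not analysed.

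Fitted over all 8 samples on the log2 scale, the ragweed 72 h mean exceeded the PBS 72 h mean by 4.88 ± 0.28 (SE, n = 2 per group), a 29.4-fold difference between geometric means of 16396 in ragweed 72 h and 558 in PBS 72 h. This was the largest of 12840 genes ranked by that difference. Ragweed 24 h exceeded PBS 24 h by at least 4.05 ± 0.28, or at least 16.6-fold, with 4828 in ragweed 24 h against the floor in PBS 24 h. By this fitted value, which the floor bounds, Ccl8 ranked at place 3 of 12840. Between the ragweed groups, 72 h exceeded 24 h by 1.76 ± 0.28, or 3.40-fold, at place 24. Errors are too small for a gene with a group at the floor, since floored values are equal. The 4 groups share 1 estimate of spread, so this holds for every Ccl8 difference, also those that leave out PBS 24 h.

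The ragweed arrays had been deposited on a common scale, so the change between the times can also be read without any further normalization. The deposited intensities were 20095 and 21316 in ragweed 72 h and 4670 and 7255 in ragweed 24 h, with means of 20706 ± 863 in ragweed 72 h and 5963 ± 1828 in ragweed 24 h (SD, n = 2 each). The ratio of these means was 3.47, and the ratios of single 72 h samples to single 24 h samples ran from 2.77 to 4.56. Both 72 h samples were above both 24 h samples on either scale.

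Between the PBS groups, Ccl8 was higher at 72 h than at 24 h by at least 0.94 ± 0.28. By this fitted value, which the floor bounds, it was at place 288 of 12840 genes. Without PBS 72 h sample 1a this difference was 0.54, and without sample 1b it was 1.34. Whether the ragweed response itself was larger at 72 h depended on how the low PBS 24 h values were treated. The 72 h response exceeded the 24 h response by 0.83 ± 0.39 with the floor and by 0.02 without it, where the 24 h difference was 4.86 and the PBS groups differed by 1.74. The difference between the ragweed times does not use the PBS samples and was 1.76 with or without the floor.

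The version 2 A array carries a probe set of the same ID and was hybridized with ragweed 72 h, PBS 72 h and PBS 24 h samples, while ragweed 24 h on that version was not analysed here. Ccl8 was 13730 and 14097 in ragweed 72 h, 469 and 188 in PBS 72 h, and 93.1 and 209 in PBS 24 h. The ragweed samples again did not overlap with PBS, and of the 4 PBS samples only the 469 of PBS 72 h was above that array's floor of 244.9. Means were 13914 ± 260 in ragweed 72 h, 328 ± 199 in PBS 72 h and 151 ± 81.8 in PBS 24 h (SD, n = 2 each), and the 72 h difference was 5.36 ± 0.29, or 41.1-fold, with the other PBS 72 h sample raised to the floor. Actin probe sets, whose 3′ over 5′ signal measures RNA quality, gave ratios of 0.801 and 0.578 in ragweed 72 h, 0.189 and 0.198 in PBS 72 h, and 0.535 and 0.437 in PBS 24 h on that version, against 0.798 to 0.968 on the first-version A array, and its part in the larger difference was not tested.

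The fitted differences of the other CC chemokines between ragweed and PBS were smaller than those of Ccl8, and most did not pass the test. Several are bounds set by the floor, and without it Ccl2 differed by 4.48 at 24 h (adjusted p = 0.0981, limma), against 4.86 for Ccl8. With limma and Benjamini-Hochberg adjustment over all 25250 probe sets tested (called at an adjusted p under 0.05), 1 of 11 genes was called higher in ragweed 72 h than in PBS 72 h, and 0 lower, where 0.654% of 12840 genes were called, 0.382% higher and 0.273% lower. At an unadjusted p under 0.05 there were 4. The median log2 difference of the 11 genes was 0.49, within a range of -0.15 to 2.29, against 0 over all genes. At 24 h, 3 of 11 were called higher and 0 lower, where 0.366% of all genes were called, 0.327% higher and 0.0389% lower. There, 7 had an unadjusted p under 0.05, and the median was 0.50 (range -0.15 to 2.49), against 0.00 over all genes. The PBS samples of each time are shared by all these differences, Ccl8 included.

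Ccl9, which attracts myeloid cells through Ccr1, was called at both times. Its intensity was 3245 and 3511 in ragweed 72 h, 2880 and 3256 in ragweed 24 h, 638 and 749 in PBS 72 h, and 825 and 375 in PBS 24 h. All 4 ragweed samples were above all 4 PBS samples, and the ragweed times overlapped. The log2 difference was 2.29 ± 0.32 at 72 h (adjusted p = 0.0261, limma) and 2.46 ± 0.32 at 24 h (adjusted p = 0.0288), and ragweed 72 h differed from ragweed 24 h by 0.14 ± 0.32 (adjusted p = 0.921). On the version 2 A array the 72 h difference was 2.07 ± 0.13 (adjusted p = 0.00491). Both first-version calls were lost without either sample of ragweed 72 h, ragweed 24 h or PBS 72 h, with adjusted p up to 0.215 at 72 h and 0.226 at 24 h, while the log2 difference stayed between 1.89 and 3.03.

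The eotaxins Ccl11 and Ccl24, which attract eosinophils through Ccr3, had their highest levels in ragweed 24 h, unlike Ccl8. Ccl11 was 712 and 454 in ragweed 72 h, 1488 and 1830 in ragweed 24 h, 64.7 and 360 in PBS 72 h, and 297 and 104 in PBS 24 h. Its log2 difference from PBS was 0.81 ± 0.30 at 72 h (adjusted p = 0.421, limma) and 2.49 ± 0.30 at 24 h (adjusted p = 0.0199), and the 72 h ragweed level minus the 24 h ragweed level was -1.54 ± 0.30 (adjusted p = 0.112). Each ragweed 24 h sample was above each ragweed 72 h sample, but neither that difference nor the difference between the responses (-1.68 ± 0.42, adjusted p = 0.467) passed. The 64.7 of PBS 72 h and the 104 of PBS 24 h lay under the floor of 291.6, so the errors of Ccl11 rest partly on floored values. Without the floor its 24 h difference was 3.23 and was not called (adjusted p = 0.185, limma). The 24 h call was also lost with the floor at the 20th percentile and with no filter. On the version 2 A array all PBS values of Ccl11 were under the floor, and the 72 h difference was at least 1.73 ± 0.17 (adjusted p = 0.0184), with an error and p that rest on floored values. Without any 1 of the 8 samples other than ragweed 24 h sample 1a, the 24 h call was lost (adjusted p up to 0.195).

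Ccl24 was 1057 and 995 in ragweed 72 h, 1633 and 2061 in ragweed 24 h, 524 and 297 in PBS 72 h, and 218 and 209 in PBS 24 h. All ragweed values were above all PBS values, with ragweed 24 h highest, and 3 of the 4 PBS values lay under the floor of 356.4 for this array. The difference from PBS was 1.25 ± 0.40 at 72 h (adjusted p = 0.302, limma) and at least 2.36 ± 0.40 at 24 h (adjusted p = 0.0442), and ragweed 72 h minus ragweed 24 h was -0.84 ± 0.40 (adjusted p = 0.502). The 24 h call was lost without any 1 of the 8 samples, with adjusted p up to 0.263 and differences from 2.20 to 2.53.

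The monocyte attractants on the same stretch of chromosome 11 lay near or under the floor. Ccl2 was 333 and 395 in ragweed 72 h, 515 and 549 in ragweed 24 h, 113 and 62.3 in PBS 72 h, and 31.6 and 18.1 in PBS 24 h. All of its ragweed values were above the floor and all of its PBS values below it. The difference was at least 0.32 ± 0.16 at 72 h (adjusted p = 0.614, limma) and at least 0.87 ± 0.16 at 24 h (adjusted p = 0.121). Ccl7 was 230 and 273 in ragweed 72 h, 370 and 395 in ragweed 24 h, 71.7 and 46.5 in PBS 72 h, and 41.0 and 86.4 in PBS 24 h, so that it was above the floor in ragweed 24 h and in no other group. Its 24 h difference was at least 0.39, and 2.68 without the floor (adjusted p = 0.422, limma). Ccl2 entered the test only through ragweed samples and Ccl7 only through ragweed 24 h, the groups where they were high, so their errors rest on equal floored values elsewhere.

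Ccl12, the neighbour whose promoter is shown beside that of Ccl8, was 142 and 575 in ragweed 72 h, 507 and 347 in ragweed 24 h, 76.0 and 51.4 in PBS 72 h, and 570 and 118 in PBS 24 h. The ragweed groups and PBS 24 h overlapped, and both PBS 72 h values were under the floor, as was 1 sample each of ragweed 72 h and PBS 24 h, so the differences are not firm values. They were 0.49 ± 0.40 at 72 h (adjusted p = 0.760, limma) and 0.04 ± 0.40 at 24 h (adjusted p = 1). Of Ccl2, Ccl7, Ccl11, Ccl12 and Ccl1, the tested neighbours of Ccl8, Ccl11 at 24 h was the only one called at either time, where 0.366% of all genes were called at 24 h. Without the floor that call was lost. Ccl1, the other Ccr8 ligand, gave differences of -0.15 ± 0.45 at both 72 h (adjusted p = 0.970) and 24 h (adjusted p = 0.974), and its second probe set was under the floor in all samples.

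Within ragweed, Ccl8 was higher at 72 h than at 24 h, while 7 of the 11 other CC chemokines had lower and 4 had higher fitted levels at 72 h than at 24 h. None of the 11 was called between the ragweed times (limma, 0 higher and 0 lower, where 0.296% of 12840 genes were called, 0.210% higher and 0.0857% lower), and 6 had an unadjusted p under 0.05. Their median was -0.39 and their range -1.54 to 1.20, against a median of -0.01 over all genes and 1.76 ± 0.28 for Ccl8. Adjusted within each table, Ccl11 was called here (adjusted p = 0.0467). For the difference between the responses, 0 of 11 were called and 4 had an unadjusted p under 0.05, where 0.0312% of genes were called, all 4 of them lower. Between PBS 72 h and PBS 24 h, 0 of 11 were called and 1 had an unadjusted p under 0.05, where 0.405% of genes were called in either direction.

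Ccl5, an attractant of T cells, came closest to Ccl8 in its change between the ragweed times among probe sets of 1 gene. It was 1266 and 1276 in ragweed 72 h, 595 and 517 in ragweed 24 h, 980 and 815 in PBS 72 h, and 277 and 421 in PBS 24 h. Its 72 h samples were above its 24 h samples in ragweed and in PBS alike. The difference was 1.20 ± 0.27 between the ragweed times (adjusted p = 0.182, limma) and 1.35 ± 0.27 between the PBS times (adjusted p = 0.156), and the response differed by 0.51 ± 0.27 from PBS at 72 h (adjusted p = 0.638) and by 0.66 ± 0.27 at 24 h (adjusted p = 0.549). Under alternatives other than leaving out a sample, the 24 h difference ran from -0.69 to 0.70 and the 72 h difference from 0.27 to 1.86.

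Ccl6, a ligand of Ccr1, had probe sets on the A and C arrays that disagreed. The A probe set, 92849_at, gave 0.87 ± 0.22 at 72 h (adjusted p = 0.198, limma), 0.15 ± 0.22 at 24 h (adjusted p = 0.900) and 0.63 ± 0.22 between the ragweed times (adjusted p = 0.340). The C probe set, 167582_f_at, whose suffix marks probes shared within a gene family, gave 0.98 ± 0.23 at 72 h (adjusted p = 0.171), 1.77 ± 0.23 at 24 h, which was called (adjusted p = 0.0264), and -0.71 ± 0.23 between the ragweed times (adjusted p = 0.317). Hence the sign of the time course of Ccl6 is uncertain.

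The remaining CC chemokines had no calls. Ccl3, a macrophage inflammatory protein, differed by 0.04 ± 0.15 at 72 h (adjusted p = 0.981, limma) and by at least 0.50 ± 0.15 at 24 h (adjusted p = 0.368), and Ccl22, a ligand of Ccr4, by 0.31 ± 0.23 at 72 h (adjusted p = 0.741) and 0.05 ± 0.23 at 24 h (adjusted p = 0.996). Ccl4, Ccl17, Ccl25 and Ccl28 were under the floor in all 8 samples and were not tested, although Ccl17 is, like Ccl22, a ligand of Ccr4. The probe sets 100972_s_at and 100973_i_at, which match several Ccl27 genes, did not pass the filter and were not tested either. The probe set 103012_at, which matches several Ccl21 genes, gave 1.27 ± 0.27 between the ragweed times (adjusted p = 0.140), with differences from PBS of -0.21 ± 0.27 at 72 h and -0.85 ± 0.27 at 24 h (adjusted p = 0.859 and 0.372). The probe set 96950_at, which matches several Ccl19 genes, gave 0.04 ± 0.27 at 72 h and 0.20 ± 0.27 at 24 h (adjusted p = 1 and 0.889).

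**Figure D2:**
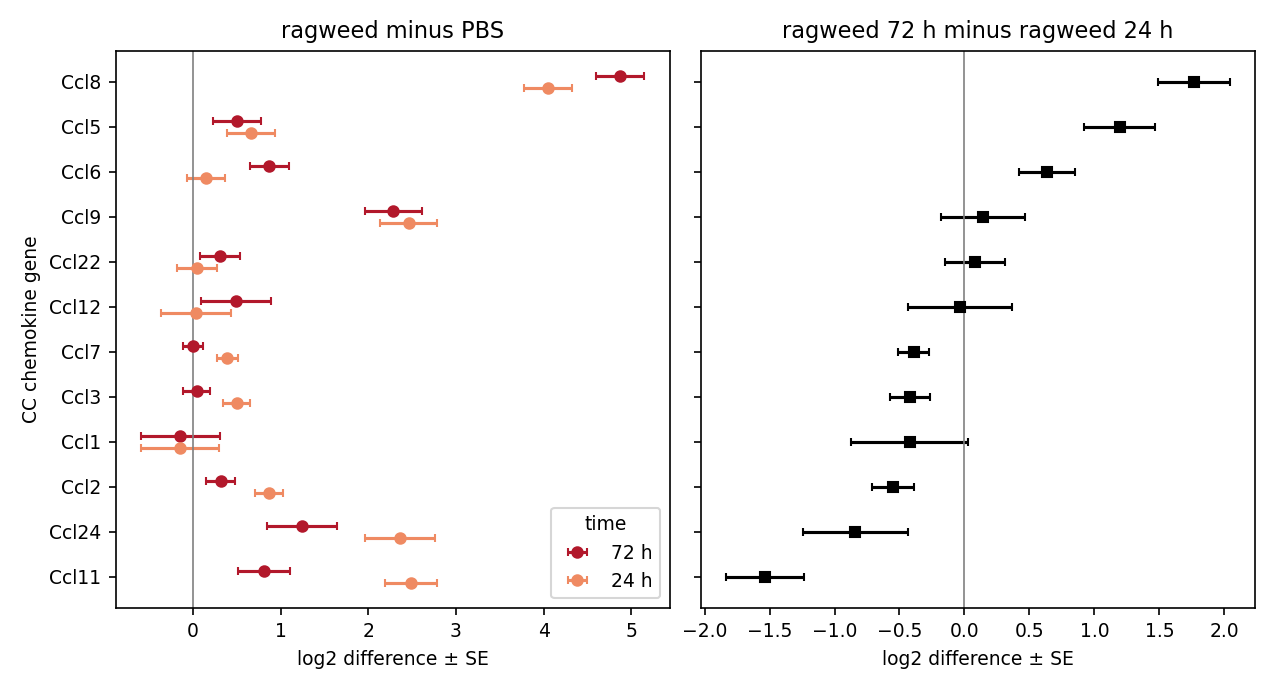
Fitted log2 differences of Ccl8 and the 11 other tested CC chemokines, with bars of 1 SE (n = 2 samples per group). The left panel shows ragweed minus PBS at 72 h and at 24 h, where Ccl8 lies at 4.88 and 4.05 (the second a lower bound) and no other fitted value exceeds 2.49, lower bounds included. The right panel shows ragweed 72 h minus ragweed 24 h, from 1.76 for Ccl8 at the top to -1.54 for Ccl11 at the bottom.

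The receptor of Ccl8 was not above the floor in any sample. Ccr8 (99895_at) lay between 55.4 and 103 and Ccr4, a T helper 2 cell receptor for other chemokines, between 43.5 and 102, both under the floor in all 8 samples. Of 3 tested receptors, Ccr1, Ccr2 and Ccr3, 0 were called at either time, and 1 at 72 h and 2 at 24 h had an unadjusted p under 0.05 (limma). Ccr2, the monocyte receptor, was 662 and 624 in ragweed 72 h, 599 and 646 in ragweed 24 h, 577 and 361 in PBS 72 h, and 347 and 392 in PBS 24 h. Its differences were 0.49 ± 0.28 at 72 h (adjusted p = 0.661) and 0.75 ± 0.28 at 24 h (adjusted p = 0.494).

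The sources and targets of Ccl8 were described by marker lists. Of 14 tested macrophage and monocyte genes, 4 were called higher at 72 h (C1qb, C1qa, Ctss and Mpeg1; median 0.59) and 2 at 24 h (C1qa and Ctss; median 0.45), and 0 were lower, where 0.382% of all genes were called higher at 72 h and 0.327% at 24 h. C1qa, a complement chain made by macrophages, was 5683 and 5867 in ragweed 72 h, 2765 and 2926 in ragweed 24 h, 2190 and 1998 in PBS 72 h, and 1476 and 1667 in PBS 24 h. Its groups fell in the order of Ccl8 without overlap, and it differed by 1.46 ± 0.11 at 72 h (adjusted p = 0.00164, limma), 0.86 ± 0.11 at 24 h (adjusted p = 0.0304) and 1.02 ± 0.11 between the ragweed times (adjusted p = 0.0136). Mpeg1, a perforin of macrophages, was also called between the ragweed times (1.59 ± 0.23, adjusted p = 0.0399), and these were the 2 of 14 called there, with all 14 fitted differences positive and a median of 0.28. Against PBS, 13 of the 14 fitted differences were positive at 72 h and 10 at 24 h. The summed level of the 14 genes was 67518 to 78106 in ragweed 72 h, 53995 to 55835 in ragweed 24 h, 57347 to 62572 in PBS 72 h and 60753 to 66896 in PBS 24 h. Lyz2, the lysozyme of myeloid cells, made up the largest share, and all of its ragweed values lay below all of its PBS values. It was 26784 and 35948 in ragweed 72 h and 27322 in each ragweed 24 h sample. In PBS 72 h it was 41672 and 37862, and in PBS 24 h 41672 and 49622. Without Lyz2 the sum was 40734 to 42158 in ragweed 72 h and 26673 to 28513 in ragweed 24 h. In PBS 72 h that sum was 19485 to 20899 and in PBS 24 h 17274 to 19080, the order of Ccl8. The sum without Lyz2 was added after seeing the data, and its part in the Ccl8 levels was not tested. Adgre1, Itgam and Marco, which mark macrophages, had no tested probe set.

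These macrophage calls depended on single samples. The calls of Mpeg1 at 72 h and between the times, of C1qb at 72 h and of C1qa at 24 h were lost without any 1 of the 8 samples. C1qa between the ragweed times stayed called without ragweed 24 h sample 1a or either PBS 24 h sample, and was lost in the other 5 fits. Ctss stayed called in 5 of 8 such fits at 72 h and in 3 of 8 at 24 h. All these genes kept their direction in every alternative.

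Of 11 tested genes of alternatively activated macrophages, the state that the type 2 cytokines induce, 3 were called higher at 72 h (Chil3, Retnla and Mmp12; median 1.18) and 5 at 24 h (these with Arg1 and Ccl24; median 1.71), and 0 were lower, against 0.382% of all genes called higher at 72 h and 0.327% at 24 h. Chil3 and Mmp12 were also called higher in PBS 72 h than in PBS 24 h. Both of these PBS calls depended on single samples and held under 5 of 10 alternatives other than leaving out a sample. They were lost with trimmed mean scaling alone, with no filter and on version 2 A. Chil3, a chitinase-like protein, differed by 4.16 ± 0.12 at 72 h (adjusted p = 1.05e-05, limma) and by 4.92 ± 0.12 at 24 h (adjusted p = 2.7e-06). Between the ragweed times it differed by 0.15 ± 0.12, which did not pass (adjusted p = 0.716), against 1.76 for Ccl8. Arg1, the arginase of these cells, had the opposite time course to Ccl8, with 718 and 609 in ragweed 72 h, 1717 and 1407 in ragweed 24 h, and all PBS values under the floor. Its difference between the ragweed times was -1.23 ± 0.25 and did not pass (adjusted p = 0.126). Arg1 entered the test only through ragweed samples, where it was high, so its 24 h call and its errors rest on equal floored values. Cd163 also entered only through ragweed samples and was not called. Chil3 stayed called without any 1 sample at both times, while at 72 h Retnla did so in 4 of 8 fits and Mmp12 in 5. None of the 11 was called between the ragweed times, and 2 had an unadjusted p under 0.05. There, 5 of the 11 fitted differences were positive, with a median of -0.06. Their summed level was 75975 to 78170 in ragweed 72 h, 68209 to 72873 in ragweed 24 h, 10928 to 11852 in PBS 72 h and 7533 to 7632 in PBS 24 h, the same order of groups as for Ccl8. Chil3 made up most of this sum in ragweed, with 52066 and 50946 in ragweed 72 h and 43673 and 49622 in ragweed 24 h. The part of the sum in the Ccl8 levels was not tested.

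Genes of T cells, which Ccl8 attracts, showed no calls. Of 4 tested T helper 2 genes, 0 were called at either time or at an unadjusted p under 0.05 (limma), with medians of 0.18 at 72 h and 0.07 at 24 h, and Il4, Il13 and Il1rl1 had no tested probe set. Of 5 T cell genes, 0 were called and 1 at each time had an unadjusted p under 0.05, with medians of -0.27 at 72 h and -0.06 at 24 h. Their summed level was 2786 to 3121 in ragweed 72 h, 3227 to 3275 in ragweed 24 h, 3831 to 4030 in PBS 72 h and 4690 to 4716 in PBS 24 h, the reverse order of Ccl8. The place of PBS 24 h in that order rested on Cd3d alone. Cd3d was 1830 and 1816 in PBS 24 h and 315 to 767 in the other groups.

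Some markers of B and plasma cells were also higher in ragweed. Of 8 tested genes, 4 were called higher at 72 h and 2 at 24 h, and 4 between the ragweed times (Jchain, Ighm, Cd22 and Mzb1), with medians of 1.07 at 72 h, 0.31 at 24 h and 1.10 between the ragweed times, where 0.382%, 0.327% and 0.210% of all genes were called higher. At 24 h 5 of 8 had a positive difference, and Cd79a, a chain of the B cell receptor, differed by -0.56 ± 0.19 at 72 h and did not pass (adjusted p = 0.368, limma). Jchain (1.99 ± 0.17, adjusted p = 0.00429) and Ighm (1.23 ± 0.12, adjusted p = 0.00691) were also called higher in PBS 72 h than in PBS 24 h. Both of these PBS calls were lost on version 2 A. The Mzb1 call between the ragweed times (adjusted p = 0.0498, limma) held under 1 of 9 alternatives other than leaving out a sample. The summed level of the 8 genes was 44913 to 52515 in ragweed 72 h, 20973 to 21051 in ragweed 24 h, 17623 to 18075 in PBS 72 h and 9689 to 10009 in PBS 24 h, again the order of Ccl8. Without Ighm it was 14653 to 15081 in ragweed 72 h, 6822 to 8031 in ragweed 24 h, 7509 to 8240 in PBS 72 h and 5449 to 5763 in PBS 24 h, where ragweed 24 h and PBS 72 h overlapped, and its part in the Ccl8 levels was not tested. Without 1 sample, the calls between the ragweed times held in 4 of 8 fits for Jchain, the joining chain of secreted IgM and IgA, in 2 for Ighm, the IgM heavy chain, in 1 for Mzb1 and in 0 for Cd22. Of 3 eosinophil, 6 neutrophil, 5 mast cell, 3 dendritic cell and 5 interferon-induced genes, 0 were called at either time (limma). At an unadjusted p under 0.05 there were 2 eosinophil, 1 neutrophil and 2 mast cell genes at 72 h, and 1 neutrophil and 1 mast cell gene at 24 h.

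Genes of other tissue cells were called too, where 0.273% of all genes were called lower at 72 h and 0.327% higher at 24 h, and the directions of several depended on the setting. Of 6 fibroblast genes, 1 was lower at 72 h (Col1a1, -0.64 ± 0.10, adjusted p = 0.0339, limma) and 0 were called at 24 h. Of 8 heart and skeletal muscle genes, 2 were lower at 72 h (Myl7 and Nppa) and 1 was higher at 24 h (Acta1). Of 7 lung epithelium genes, Cyp2f2 was lower at 72 h and higher at 24 h, and Scgb1a1 was higher at 24 h. The PBS groups themselves differed in 3 of these genes, called higher in PBS 72 h than in PBS 24 h. They were Cyp2f2 (1.68, adjusted p = 0.000655, limma), Scgb1a1 (1.27, adjusted p = 0.0057) and Acta1 (1.94, adjusted p = 0.0013), where 0.265% of all genes were called higher. All 3 of these PBS calls depended on single samples. That of Scgb1a1 was also lost with trimmed mean scaling alone, with no filter and on version 2 A, and its direction turned under 1 alternative. The PBS calls of Cyp2f2 and Acta1 held under all 10 alternatives other than leaving out a sample. Cyp2f2 was 10155 to 12420 in the ragweed samples, 21306 and 21531 in PBS 72 h, and 6351 and 7065 in PBS 24 h. The fitted directions of Acta1 and Scgb1a1 at 24 h and of Col1a1 at 72 h turned under 1 alternative each, and that of Cyp2f2 under 2 at each time. Without 1 sample, the calls of Col1a1 and Myl7 at 72 h and of Cyp2f2 at 24 h held in 0 of 8 fits, Nppa and Cyp2f2 at 72 h and Scgb1a1 at 24 h in 4, and Acta1 in 8. The summed muscle level was 15526 to 16079 in ragweed 72 h, 15830 to 17813 in ragweed 24 h, 27027 to 28974 in PBS 72 h and 12129 to 12218 in PBS 24 h, which differs from the order of Ccl8.

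Genes with a pattern like that of Ccl8 were ranked by Pearson's r of log2 intensity over the 8 samples, among 1720 genes whose group means spanned at least 1 log2 unit. The 10 nearest were AI506816 (r = 0.993), Ctss (0.992), Hc (0.990), Tff2 (0.987), F7 (0.978), Pigr (0.972), Fcgbp (0.970), Chil3 (0.966), Igkv9-120 (0.963) and Metrnl (0.963). The 8 samples share their 4 groups and arrays, so these values mainly order the genes by how closely their group means follow those of Ccl8. Ccl8 was itself chosen with its ragweed and PBS values known, so a ragweed difference was built into the choice of the 10 genes. Their differences and p-values below are thus a description and no separate test. Over all genes, 0.382% were called higher at 72 h and 0.327% at 24 h. The set shared 7 or 8 of its 10 members with the set found without any 1 sample, and 4 with the set found by Spearman's rho.

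Ctss is cathepsin S, a protease of antigen-presenting cells, and was 13846 and 15034 in ragweed 72 h, 9608 and 9706 in ragweed 24 h, 6466 and 5821 in PBS 72 h, and 5247 and 4939 in PBS 24 h. Its groups followed the order of Ccl8 without overlap, over a smaller range. It differed by 1.23 ± 0.09 at 72 h (adjusted p = 0.0014, limma), 0.92 ± 0.09 at 24 h (adjusted p = 0.00596) and 0.58 ± 0.09 between the ragweed times (adjusted p = 0.0611). Tff2, a trefoil peptide of mucus, differed by 2.23 ± 0.18 at 72 h (adjusted p = 0.00169) and 2.08 ± 0.18 at 24 h (adjusted p = 0.00233).

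Fcgbp, a mucus protein that binds IgG, differed by 2.20 ± 0.16 at 72 h (adjusted p = 0.00133, limma) and 2.89 ± 0.16 at 24 h (adjusted p = 0.000206), and Pigr, which carries IgA across epithelium, by 1.40 ± 0.10 at 72 h (adjusted p = 0.00124) and 1.79 ± 0.10 at 24 h (adjusted p = 0.000206). Hc, complement component C5, differed by 1.08 ± 0.11 at 72 h (adjusted p = 0.00625) and 1.16 ± 0.11 at 24 h (adjusted p = 0.00528). Igkv9-120, an immunoglobulin kappa variable gene read by a probe set shared within its family, was called at both times (without 1 sample, in 2 of 8 fits at 72 h and 1 at 24 h), while AI506816, F7 (coagulation factor VII) and Metrnl were called at neither. Without 1 sample, the 72 h calls held in 2 of 8 fits for Hc, 4 each for Fcgbp and Pigr and 5 for Tff2, and the 24 h calls in 3, 8, 8 and 7. On version 2 A the 72 h calls of Hc and Tff2 were lost, as were both calls of Hc without a trend. None of the 10 was called between the ragweed times, with fitted differences from 0.15 to 0.82 against 1.76 for Ccl8.

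Among the CC chemokines, Ccl9 was the most like Ccl8 (r = 0.937, rank 21 of 1720), followed by Ccl24 (r = 0.834, rank 86), Ccl5 (r = 0.638, rank 263) and Ccl11 (r = 0.637, rank 264). The other 7 spanned less than 1 log2 unit and had r from -0.33 for Ccl1 to 0.80 for Ccl6.

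**Figure D3:**
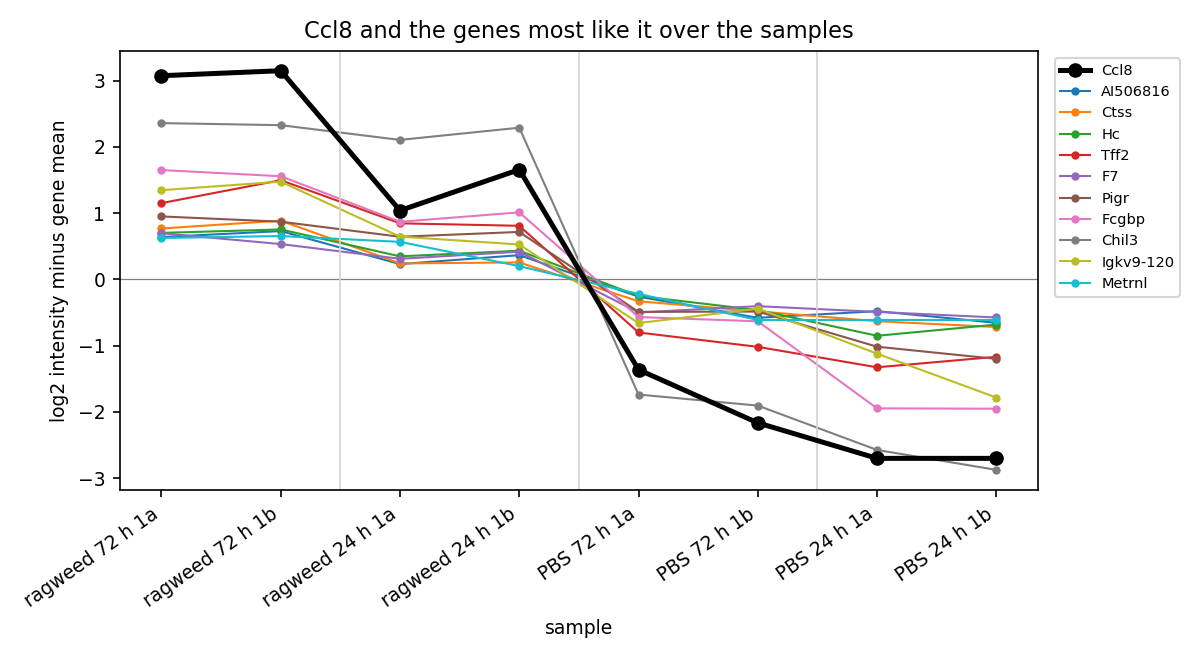
Log2 intensity of Ccl8 (thick black line) and of the 10 genes most like it (thin lines), each minus its mean over the 8 samples, with values under the floor raised to it. Samples run along the x axis by group, and lines join them only to guide the eye. Ccl8 spans from 3.15 above its mean in ragweed 72 h to -2.70 in both floored PBS 24 h samples.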

How the data were processed

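The authors deposited linear intensity values, 1 per probe set and array. Software and scaling for them are not stated in the labels or file headers. Version 2 arrays and first-version ragweed arrays came on a common scale, while first-version PBS arrays had trimmed means from 79.6 to 373.5. One more ragweed 24 h array equalled sample 1a divided by 2.63 and was counted as the same array, leaving 46 distinct arrays of 47.

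First-version A values, restricted to 9977 probe set IDs shared with version 2 A, were brought to 1 scale (2% trimmed mean of 800), then quantile normalized, and version 2 B and C values were used as deposited. Values under the 40th percentile of a table (291.6 for A, 356.4 for B, 244.7 for C) were raised to it, and probe sets above it on at least 2 arrays were tested, 25250 in all. Each table was fitted on the log2 scale with limma 3.58.1 in R 4.3.3, with 4 group means, 4 residual degrees of freedom and a mean-dependent variance prior (eBayes). Benjamini-Hochberg adjustment pooled the 3 tables. "At least" marks a difference whose lower group lay wholly at the floor. The number of arrays limits the precision, with a median SE of 0.23 on A, 0.32 on B and 0.45 on C. The fit was tested on simulated data.

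Gene symbols are those of the platform annotation brought up to date through Entrez IDs. Of 34256 probe sets, 27022 had 1 symbol, 674 several and 6560 none, and each of 12840 genes was read from 1 probe set, the brightest on the A array or, failing that, on B or C. Named genes were Ccl8, every other CC chemokine, their receptors, the 10 genes most like Ccl8 and up to 4 members of each list, the called ones with the largest mean difference or else the brightest. Ccl8 and the gene lists were chosen with earlier results of these data known. Alternatives covered normalization, floor, filter, PBS samples, array version, the replicate block, the trend, the adjustment and leaving out each sample.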

Additional observations from a re-analysis of the deposited data

Results flagged for a closer look

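The first-version B and C arrays were used in no comparison, and they held 2 CC chemokine probe sets with ragweed samples above all PBS samples, Ccl24 at both times and Ccl6 at 24 h alone. Ccl24 (116192_at) on first-version B was 1796 and 1592 in ragweed 72 h, 2091 and 2336 in ragweed 24 h, 646 and 729 in PBS 72 h, and 902 and 561 in PBS 24 h, after scaling to a common trimmed mean. The log2 difference from PBS was 1.30 at 72 h and 1.64 at 24 h, with no test. Ccl6 (140856_f_at) on first-version C was 769 and 1186 in ragweed 72 h, 1620 and 1085 in ragweed 24 h, 421 and 685 in PBS 72 h, and 1009 and 698 in PBS 24 h, and its log2 difference at 24 h was 0.66. Both of its ragweed 72 h samples were also above both PBS 72 h samples, but the 769 lay below the 1009 of PBS 24 h. Neither array holds a Ccl8 probe set.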

How the results depend on the processing

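Ccl8 kept its direction in every comparison under every alternative run. At 72 h its log2 difference was 5.34 against the PBS samples of both times, 5.81 against those of 24 h and 5.36 on version 2 A, and 4.47 to 5.28 without 1 sample. At 24 h it was 4.82 with the floor at the 20th percentile, 3.51 with the 50th, 4.86 with no floor (chosen after seeing the data), 3.58 against the PBS samples of both times, 3.11 against those of 72 h, and 3.74 to 4.36 without 1 sample. The difference between the responses was 0.060, 1.37 and 0.021 with the floor at the 20th percentile, at the 50th and with none, and 0.43 to 1.23 without 1 sample. The PBS difference was 1.70, 0.40 and 1.74 under the same floors, 0.47 on version 2 A, and 0.54 to 1.34 without 1 sample. Between the ragweed times it ran from 1.45 to 2.07 without 1 sample. A lower floor lowers the bound that the PBS 24 h samples set.

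Of the other CC chemokines, at 72 h 0 were called with no filter and without a trend, 2 against the PBS samples of 24 h and on version 2 A, and 0 to 1 without 1 sample. At 24 h, 1 was called with no filter and 0 to 1 without 1 sample. Between the ragweed times, 1 was called with no filter and 1 with adjustment within each table. With no filter, the gene called at 24 h and between the ragweed times was Ccl7, which was above the floor in ragweed 24 h alone. The main calls of Ccl9 at both times and of Ccl11 and Ccl24 at 24 h were all lost with no filter. The cause was not tested. Deviations of samples with the same letter correlated from -0.08 to 0.04 over 18 pairs, which showed no pairing by letter. With 2 samples per group this cannot exclude pairing. With the replicate block, 1 was called at 72 h and 2 at 24 h, and Ccl24 was lost (adjusted p = 0.0636).

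Of the receptor and list genes, 15 were called at 72 h and 11 at 24 h, with 1 to 10 and 6 to 9 without 1 sample, and 12 and 10 with the replicate block. Over all probe sets, 133 were called at 72 h and 58 at 24 h, and 2 to 59 and 22 to 204 without 1 sample and 80 to 238 and 41 to 121 under the other alternatives. Between the ragweed times 77 were called (0 to 200 and 42 to 152), between the PBS times 71 (0 to 20 and 32 to 118), and for the difference between the responses 9 (0 to 5 and 4 to 123). The number of arrays and the floor limit what can be seen of weak probe sets.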
